A study of Rattus norvegicus with 10 samples.

Results

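Genes of the A-type potassium channel were examined in the nucleus tractus solitarii (NTS) of the spontaneously hypertensive rat (SHR) against the normotensive Wistar-Kyoto rat (WKY). The members are the 3 pore genes Kcnd1, Kcnd2 and Kcnd3 and the 6 auxiliary genes Kcnip1, Kcnip2, Kcnip3, Kcnip4, Dpp6 and Dpp10, 9 of the 14217 genes that the platform annotation names. Every probe set annotated to a member alone was taken, 19 of 20826 probe sets with 1 gene symbol: 6 for the pore genes and 13 for the auxiliary genes. Males of both strains, aged 10 to 13 weeks and given no treatment that the labels name, provided 5 SHR and 5 WKY Affymetrix Rat 230 2.0 arrays. The SHR is an inbred strain with high blood pressure that arises from many loci. Whether a strain difference here goes with any single allele was not tested. The design text counts an array as an independent biological replicate, while the descriptions name 5 animals for a sample, so an array may stand for a pool rather than for 1 rat, and the p-values measure only the spread between arrays.

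A-type channels open at voltages below the firing threshold and inactivate rapidly, which delays the first spike and spaces later ones. In NTS neurons, which receive baroreceptor and other visceral afferents, this current sets how long firing is held back after a hyperpolarisation. The pore is a tetramer of Kcnd (Kv4) subunits. Kcnip proteins (KChIPs), calcium-binding proteins of the neuronal calcium sensor family, bind the cytosolic N-terminus of the pore, bring it to the membrane and shape its inactivation. Dpp6 and Dpp10, relatives of dipeptidyl peptidases without enzyme activity, span the membrane beside the pore and speed its gating.

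Values are the deposited linear signals, scaled by the authors to the same trimmed mean on each array. Of the 19 probe sets, 14 passed the filter on low signals and were tested, 5 for the pore and 9 for the auxiliary genes. Of these 14, 13 were at or above the 40th percentile of the array on all 10 arrays, and the other, 1370781_a_at of Kcnip1, on 4 of 5 SHR and 5 of 5 WKY arrays, so none passed through 1 strain alone. The 5 untested probe sets belong to Kcnd3, Kcnip1, Kcnip2 and Kcnip3, genes that each have a brighter tested probe set. Differences are log2(SHR signal + 16) minus log2(WKY signal + 16) from limma, with Benjamini-Hochberg adjustment over all 18846 probe sets tested and a threshold of 0.05.

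Kcnip3 and Kcnd2 were lower in SHR, Kcnd3 was lower on 1 probe set and higher on another, and the other 6 genes did not pass the test. In counts, 4 of the 14 tested probe sets passed, 3 lower and 1 higher in SHR, against 4.26% of all probe sets tested (2.2% lower and 2.06% higher), and 6 of the 14 had an unadjusted p under 0.05, against 21% of all. By role, 3 of 5 pore probe sets passed, 2 lower and 1 higher, and 1 of 9 auxiliary probe sets, lower; whether the roles differ was not tested. The median log2 difference was -0.35 over the 5 pore probe sets (range -0.46 to 0.86) and 0.073 over the 9 auxiliary ones (range -0.91 to 0.26). Over all probe sets tested it was 0.016. The pore median is the value of 1 probe set, 1387476_at of Kcnd2, which did not pass. The 8 auxiliary probe sets that did not pass all had differences above 0, from 0.056 to 0.26, as did 54.0% of all probe sets tested. Of these 8, 3 turned below 0 in other fits, both of Kcnip1 and that of Dpp10.

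**Figure D1:**
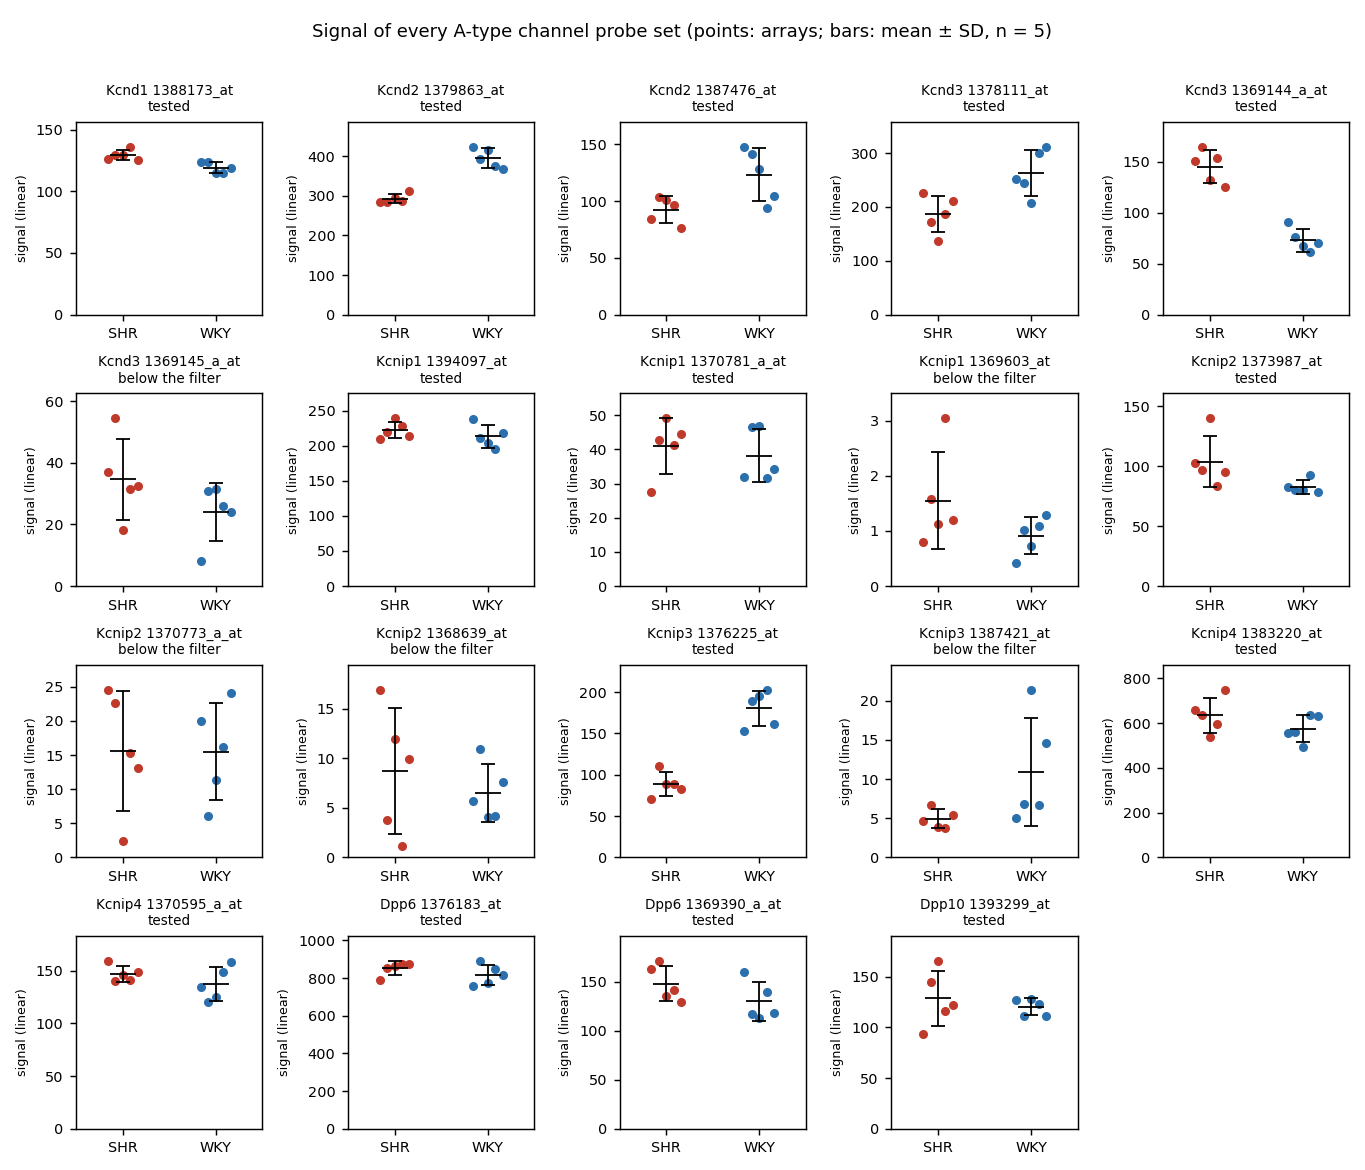
Linear signal of each of the 19 probe sets, with SHR arrays on the left and WKY arrays on the right of each panel; points are arrays and bars are the mean ± SD of 5 arrays. The strains do not overlap for Kcnd1, 1379863_at of Kcnd2, 1369144_a_at of Kcnd3 and 1376225_at of Kcnip3.

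Markers of the tissue were present: Th and Dbh, the enzymes of noradrenaline synthesis in the A2 neurons of the NTS, averaged 416 ± 19.1 and 272 ± 28.7 in the SHR arrays and 477 ± 67.8 and 334 ± 51.1 in the WKY arrays (SD, n = 5), while Slc6a2 and Tlx3 were below the filter. Of 14 tested probe sets of neuronal markers 1 was higher (Snap25) and 0 lower in SHR, 5 had an unadjusted p under 0.05, and their signals summed to 14221 to 15645 on SHR arrays and 13043 to 14790 on WKY arrays. These markers were not of 1 direction: the inhibitory neuron genes Gad1 and Slc32a1 had log2 differences of -0.30 ± 0.087 and -0.26 ± 0.079 and did not pass (limma adjusted p = 0.0619 and 0.068), and those of the neurofilament genes Nefl and Nefm were above 0 and did not pass either. Of 9 probe sets of microglial markers 4 were lower, with a sum of 2148 to 2224 in SHR against 2527 to 2784 in WKY, and of 11 oligodendrocyte probe sets 2 were lower, both of Mobp, with sums of 8320 to 10345 in SHR and 7734 to 10153 in WKY. Of 4 NTS and A2 probe sets Prlh was lower, and the sum was 1186 to 1337 in SHR against 1356 to 2032 in WKY. Of these 4, 3 had an unadjusted p under 0.05, those of Prlh, Th and Dbh. Th and Dbh differed by -0.18 ± 0.081 and -0.27 ± 0.095 in log2 and did not pass (limma adjusted p = 0.205 and 0.114). Phox2a differed by 0.0094. Of 5 choroid plexus probe sets 2 were higher, with sums of 966 to 1115 in SHR and 724 to 983 in WKY. None of 6 cerebellar, 4 motor nucleus or 11 astrocyte probe sets passed (limma), with 1, 0 and 1 at an unadjusted p under 0.05, and 1 of 7 endothelial probe sets, Vwf, was lower (sums of 1059 to 1103 in SHR and 990 to 1138 in WKY). An unadjusted p under 0.05 (limma) was found for 6 microglial, 3 oligodendrocyte, 3 choroid plexus and 2 endothelial probe sets, and for 21% of all probe sets tested. The part of these markers in the differences below was not tested. In tissue RNA, fewer cells that express a gene and less of its RNA in each cell cannot be told apart. Whether the strains differ in sequence under the probes of any probe set was not tested either. The median signal of an array was 44.2 to 49.8 in SHR and 39.6 to 45.7 in WKY, highest in SHR 3 and SHR 2 and lowest in WKY 5 and WKY 4. Since these arrays stand apart, the 4 differences that passed are also given without SHR 2 and SHR 3 and without WKY 4 and WKY 5.

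Kcnd2, the pore gene of the somatodendritic A-type current in many central neurons, was lower in SHR. Its brighter probe set, 1379863_at, had signals of 285, 285, 295, 287 and 312 in SHR 1 to 5, against 423, 394, 416, 376 and 367 in WKY 1 to 5. The highest SHR array was lower than the lowest WKY array, a separation seen in that direction in 2.91% of all probe sets tested and in either direction in 6.13%. The log2 difference was -0.41 ± 0.061 (SE; limma adjusted p = 0.000584), or a level 1.33-fold higher in WKY on this scale, and -0.41 without SHR 2 and SHR 3 (adjusted p = 0.00334) and -0.47 without WKY 4 and WKY 5 (adjusted p = 0.00224). The dimmer probe set, 1387476_at, annotated to a RefSeq mRNA, had 84.6, 103, 101, 96.5 and 76.0 in SHR, against 148, 141, 128, 93.8 and 104 in WKY. WKY 4 lay within the SHR range and WKY 5 just above it. Its log2 difference of -0.35 ± 0.12 (95% interval -0.59 to -0.11, not adjusted for the number of tests) did not pass (limma adjusted p = 0.0959), but without WKY 4 and WKY 5 it was -0.52 and passed (adjusted p = 0.0287). The difference between the 2 Kcnd2 probe sets within an array came to 1.52 ± 0.20 on the log2 scale for SHR and 1.58 ± 0.19 for WKY (SD, n = 5; exact permutation test, two-sided p = 0.571; adjusted p = 0.784 over 5 such pairs).

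Kcnd3, an A-type pore gene of many interneurons and of the heart, gave opposite results on its tested probe sets. On 1369144_a_at, annotated to the RefSeq mRNA, SHR 1 to 5 had 151, 165, 133, 154 and 125, against 91.3, 76.2, 67.5, 61.5 and 70.0 in WKY 1 to 5. Every SHR array was above every WKY array, and the SHR mean of 145 ± 16.04 was 1.98 times the WKY mean of 73.3 ± 11.3 (SD, n = 5). SHR minus WKY was 0.86 ± 0.10 on the log2 scale (SE; limma adjusted p = 5.29e-05), and 0.84 without SHR 2 and SHR 3 (adjusted p = 0.000405) and 0.78 without WKY 4 and WKY 5 (adjusted p = 0.00205).

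The brighter probe set of Kcnd3, 1378111_at, ran the other way, with 225, 173, 138, 187 and 211 in SHR 1 to 5, against 251, 244, 207, 299.8 and 311 in WKY 1 to 5. WKY 3 fell among the SHR values, and SHR 3 and SHR 2 were lowest and WKY 5 and WKY 4 highest. The log2 difference was -0.46 ± 0.12 (limma adjusted p = 0.037). This call was lost in 7 of 10 fits that omitted 1 array: without SHR 2, SHR 3, SHR 4, WKY 1, WKY 2, WKY 4 or WKY 5, the adjusted p was 0.0519 to 0.112. Without both SHR 2 and SHR 3 the difference was -0.31 ± 0.11 (adjusted p = 0.173), without both WKY 4 and WKY 5 it was -0.32 ± 0.13 (adjusted p = 0.348), and with the array medians entered as a covariate it was -0.11 ± 0.10 (adjusted p = 0.794). The difference on 1369144_a_at passed in all 10 and with the covariate. The third probe set, 1369145_a_at, was at or above the 40th percentile on 4 arrays and had 36.9, 54.5, 18.1, 31.5 and 32.6 in SHR, against 8.22, 30.9, 31.6, 26.1 and 23.9 in WKY, which overlap.

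The disagreement was itself larger than the spread between arrays. Within an array, 1378111_at exceeded 1369144_a_at by 0.32 ± 0.28 log2 units in SHR and by 1.64 ± 0.32 on WKY arrays (SD, n = 5), a difference of -1.32 with no overlap of the strains. The exact permutation test gave p = 0.00794, the smallest that 5 arrays against 5 allow two-sided (adjusted p = 0.0397 over 5 pairs). Without SHR 2 and SHR 3 the difference was -1.14 and without WKY 4 and WKY 5 it was -1.09 (exact permutation test, adjusted p = 0.0893 for each). With 3 arrays against 5, no unadjusted p below 0.0179 is possible. For a single pair of the 5, this gives an adjusted p of 0.0893 at the lowest. These 2 settings therefore could not pass this pair by itself, and say nothing against the difference. The other 4 pairs, of Kcnd2, Kcnip1, Kcnip4 and Dpp6, differed between strains by -0.11 to 0.044 and did not pass. The level of Kcnd3 as a whole therefore has no single direction here. A name ending in _a_at marks a probe set that matches several transcripts of its gene, and which transcripts the probe sets of Kcnd3 detect was not tested.

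**Figure D2:**
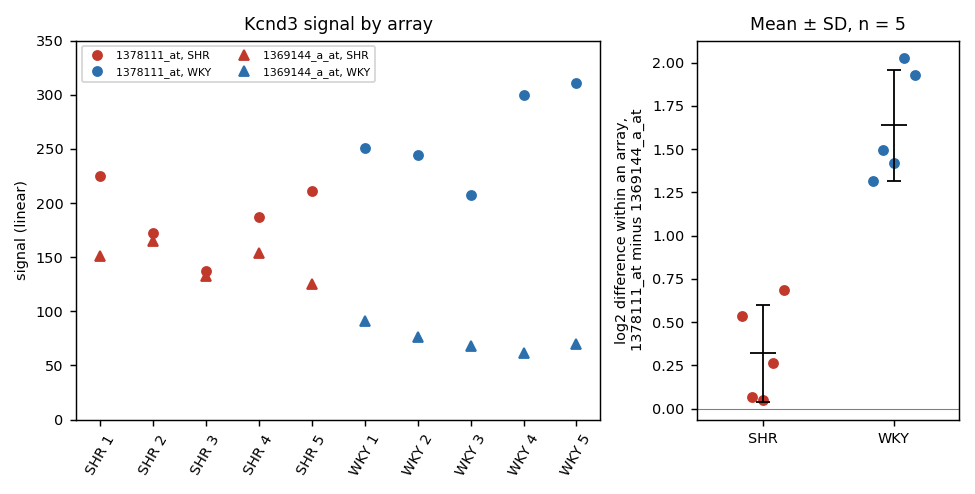
Left, linear signal of the tested Kcnd3 probe sets on each array, with circles for 1378111_at and triangles for 1369144_a_at; right, their log2 difference within each array with the mean ± SD of 5 arrays, SHR left of WKY. The probe sets lie 0.32 log2 units apart in SHR and 1.64 apart in WKY.

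Kcnd1, the pore gene usually expressed at the lowest level in brain, did not pass. Its probe set 1388173_at had 126, 129.8, 129, 136 and 125 in SHR, against 124, 123, 115, 115 and 119 in WKY. The lowest SHR array was above the highest WKY array by a small margin, a separation with SHR above that 3.22% of all probe sets tested showed. SHR minus WKY was 0.10 ± 0.070 on the log2 scale (95% interval -0.043 to 0.25; limma adjusted p = 0.412).

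Kcnip3 was the only auxiliary gene past the threshold. It encodes KChIP3, also known as calsenilin and as DREAM, which binds presenilins and represses transcription in addition to its role at the channel. Probe set 1376225_at had 71.0, 111, 88.7, 88.8 and 82.4 in SHR 1 to 5, against 153, 189, 195, 203 and 162 in WKY 1 to 5. The strains did not overlap, with every SHR array the lower: the means were 88.4 ± 14.5 for SHR and 180.2 ± 21.5 for WKY (SD, n = 5), a ratio of 2.04 for WKY over SHR. This gave a log2 difference of -0.91 ± 0.10 (SE; limma adjusted p = 3.47e-05), which lay between -0.99 and -0.85 and passed in each of 10 fits with 1 array left out, and was -1.02 without SHR 2 and SHR 3 (adjusted p = 1.95e-05) and -0.91 without WKY 4 and WKY 5 (adjusted p = 0.00116). The other probe set, 1387421_at, annotated to the RefSeq mRNA, was below the filter on every array, with 4.69, 6.70, 3.93, 3.75 and 5.46 in SHR against 4.98, 6.87, 21.4, 6.71 and 14.6 in WKY. These strains overlap, and only WKY 3 and WKY 5 exceeded 10, so the Kcnip3 result rests on 1 probe set.

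The stretches upstream of the starts of Kcnip3, Kcnd2 and Kcnd3 are shown because these are the members that passed, and because DREAM binds an element whose core is GTCA. That element was described downstream of the start of Pdyn, and bases after the start were not searched here. They are 250 bases long, read 5′ to 3′ from the RefSeq table of GRCr8, the genome of another rat strain, at chr3:135195411-135195660 (minus strand), chr4:50742235-50742484 (plus strand) and chr2:195626066-195626315 (plus strand). Capitals mark GTCA or its reverse complement TGAC.
Kcnip3: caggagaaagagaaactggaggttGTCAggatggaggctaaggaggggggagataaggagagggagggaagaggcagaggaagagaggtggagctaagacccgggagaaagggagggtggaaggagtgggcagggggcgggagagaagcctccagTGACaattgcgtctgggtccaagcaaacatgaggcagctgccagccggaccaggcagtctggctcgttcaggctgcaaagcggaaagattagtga
Kcnd2: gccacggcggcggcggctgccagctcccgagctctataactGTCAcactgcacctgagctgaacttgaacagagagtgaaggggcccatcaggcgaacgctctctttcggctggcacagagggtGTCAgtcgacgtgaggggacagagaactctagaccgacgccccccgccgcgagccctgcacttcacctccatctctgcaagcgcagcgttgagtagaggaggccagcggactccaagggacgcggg
Kcnd3: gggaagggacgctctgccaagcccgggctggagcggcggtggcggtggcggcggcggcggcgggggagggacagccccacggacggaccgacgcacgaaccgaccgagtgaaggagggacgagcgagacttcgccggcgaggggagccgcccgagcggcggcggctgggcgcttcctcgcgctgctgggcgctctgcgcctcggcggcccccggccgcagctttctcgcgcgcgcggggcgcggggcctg
The core occurred at 2 places upstream of Kcnip3, at 2 upstream of Kcnd2 and at 0 upstream of Kcnd3, and 80.7% of the 33469 stretches of that length in the table held at least 1. The GC box GGGCGG, on either strand, occurred at 1 place upstream of Kcnip3, 0 upstream of Kcnd2 and 1 upstream of Kcnd3, and in 30.5% of all stretches. The cyclic AMP response element core TGACG, whose first 4 letters are the reverse complement of the core, occurred in none of the 3 and in 18.2% of all. Of the 9 genes 7 matched the table; Kcnd1 and Kcnip4 did not. A match to letters is a description and not a binding site.

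The other KChIP genes did not pass. Kcnip2, whose product is the main KChIP of the rodent heart and is also found in brain, had 103, 96.9, 139.6, 83.4 and 94.9 on 1373987_at in SHR, against 82.5, 79.9, 79.8, 92.2 and 78.0 in WKY. SHR 4 lay within the WKY range and SHR 3 stood highest. The log2 difference was 0.26 ± 0.11 (95% interval 0.037 to 0.49, not adjusted for the number of tests; limma adjusted p = 0.169). The other Kcnip2 probe sets, 1370773_a_at and 1368639_at, lay between 1.12 and 24.6 in SHR and between 4.05 and 24.1 in WKY, below the filter on every array.

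Kcnip1, a KChIP found largely in inhibitory interneurons, had 209, 219.7, 239, 228 and 214 on 1394097_at in SHR, against 239, 211, 204, 195 and 218 in WKY. The ranges overlapped almost wholly, with a log2 difference of 0.056 ± 0.069 (95% interval -0.090 to 0.20; limma adjusted p = 0.684). On the dimmer 1370781_a_at the signals were 27.5 to 49.0 in SHR and 31.5 to 46.8 in WKY (log2 difference 0.073 ± 0.14; limma adjusted p = 0.808), and on 1369603_at the highest array had 3.04.

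Kcnip4, whose splice forms include one that slows inactivation, had 659, 635, 539.7, 596 and 749 on 1383220_at in SHR, against 557, 561, 491, 638 and 632 in WKY. SHR 5 was highest and the strains overlapped, with a log2 difference of 0.14 ± 0.085 (95% interval -0.044 to 0.32; limma adjusted p = 0.381). With the median signal as a covariate this difference was 0.37 ± 0.081 and passed (adjusted p = 0.042). The second probe set, 1370595_a_at, had 140.1 to 159 in SHR and 119.8 to 158 in WKY, a log2 difference of 0.093 ± 0.082 (limma adjusted p = 0.548).

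The dipeptidyl peptidase-like genes did not pass either. Dpp6, a partner of Kv4 pores in many central neurons, had 788, 852, 864, 876 and 876 on 1376183_at in SHR, against 759, 889, 774, 850.2 and 817 in WKY. The ranges overlapped, at a log2 difference of 0.058 ± 0.059 (95% interval -0.066 to 0.18; limma adjusted p = 0.609). On 1369390_a_at, annotated to the RefSeq mRNA, Dpp6 had 129 to 171 in SHR and 113 to 160.3 in WKY, a log2 difference of 0.17 ± 0.0998 (95% interval -0.038 to 0.38; limma adjusted p = 0.34). Dpp10, the related partner, had 93.6, 145, 165, 116 and 123 in SHR, against 127, 111, 128, 124 and 111 in WKY on 1393299_at. SHR 1 was the lowest of all arrays and SHR 3 and SHR 2 the highest, the same arrays that had the highest median signals. Its difference was 0.067 ± 0.11 (log2; 95% interval -0.17 to 0.30; limma adjusted p = 0.78), and it turned below 0 in 4 of the other fits.

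**Figure D3:**
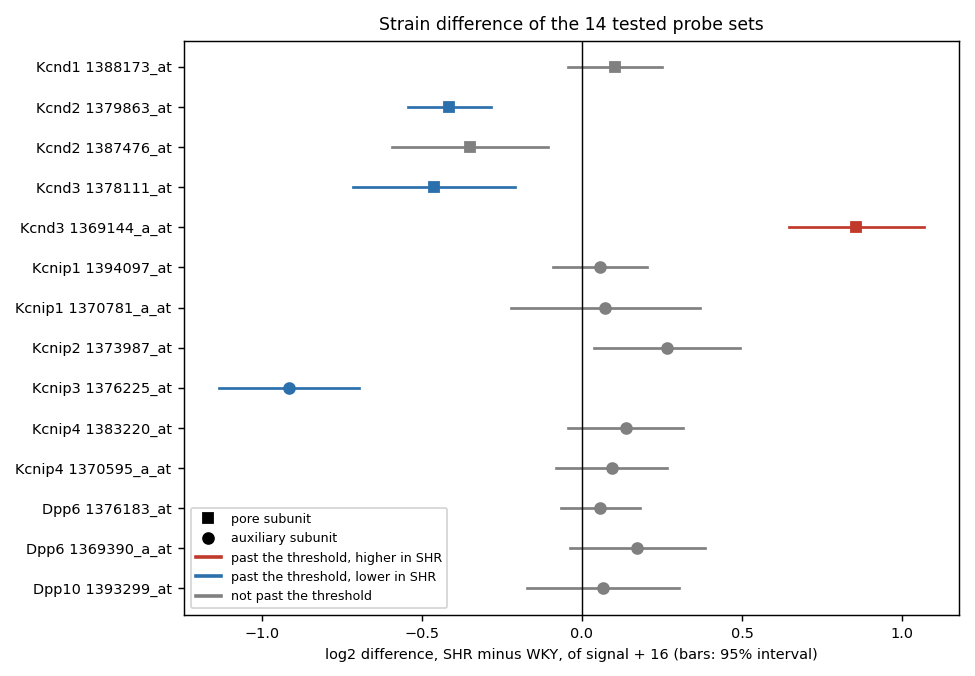
Log2 difference, SHR minus WKY, of the 14 tested probe sets with 95% intervals that are not adjusted for the number of tests; squares are pore subunits, circles auxiliary subunits, red and blue those past the threshold. Kcnip3 at -0.91 and 1369144_a_at of Kcnd3 at 0.86 lie farthest from 0.

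Auxiliary and pore genes were then set against each other within arrays, on the brightest tested probe set of each gene (for Kcnd3, 1378111_at). For each of 18 pairs the log2 difference, auxiliary minus pore, was compared between strains with a two-sided exact permutation test adjusted over the 18 pairs, and 11 passed. Without WKY 4 and WKY 5 none of the 18 passed: the lowest adjusted p was 0.0536, where 3 arrays against 5 allow no unadjusted p below 0.0179, and the 11 differences kept their direction. Pairs that share a gene share its values, so they are not independent, and a change of such a difference shows unequal change of 2 genes and not which of them changed. The values are those already tested by limma above, so the pairs that passed are no separate evidence for those calls. Since signals of different probe sets are not on 1 scale of abundance, its value within a strain says nothing of which gene is more abundant. Against Kcnd1, only Kcnip3 of the 6 auxiliary genes passed: Kcnip3 minus Kcnd1 was -0.49 ± 0.18 in SHR and 0.53 ± 0.19 in WKY (SD, n = 5), so that the strains differed by -1.02 (exact permutation p = 0.00794; adjusted p = 0.0179). For the other 5 auxiliary genes against Kcnd1, SHR minus WKY lay between -0.048 and 0.16 and did not pass (exact permutation test, adjusted p from 0.296 to 0.786).

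Against Kcnd2, whose own log2 difference on this probe set was -0.41, all 6 auxiliary genes passed. Kcnip1, Kcnip2, Kcnip4, Dpp6 and Dpp10 were higher relative to Kcnd2 in SHR by 0.47, 0.68, 0.55, 0.47 and 0.48 log2 units (exact permutation p = 0.00794 and adjusted p = 0.0179 for each), and in each of these pairs the strains did not overlap. Dpp6 minus Kcnd2, for example, was 1.49 ± 0.058 in SHR and 1.02 ± 0.16 in WKY. Kcnip3 was lower relative to Kcnd2, at -1.57 ± 0.21 in SHR and -1.07 ± 0.19 in WKY, a difference of -0.50 (exact permutation p = 0.0159, adjusted p = 0.0317). In this pair the strains overlapped. On these probe sets and this scale, Kcnip3 was lower by more than Kcnd2 was.

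Against Kcnd3 the outcome depended on the probe sets used. With 1378111_at, Kcnip1, Kcnip2, Kcnip4 and Dpp6 passed (differences 0.52, 0.73, 0.598 and 0.52; exact permutation test, adjusted p = 0.039, 0.0179, 0.0179 and 0.039), while Kcnip3 at -0.45 and Dpp10 at 0.53 did not (adjusted p = 0.121 and 0.119). The call of Kcnip1 was lost in 8 of 10 fits that omitted 1 array (all but SHR 1 and WKY 3), at an adjusted p of 0.0519 to 0.0909, and that of Dpp6 in 7 of 10 (all but SHR 1, WKY 2 and WKY 3), at 0.0519 to 0.0779. Without SHR 2 and SHR 3 they were lost too (adjusted p = 0.161 and 0.117). With the mean of the tested probe sets of each gene in its place none of these passed, and their differences were -0.13, 0.067, -0.083 and -0.083, with adjusted p from 0.443 to 0.873, while Kcnip3 minus Kcnd3 was -1.11 and passed (adjusted p = 0.0286).

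**Figure D4:**
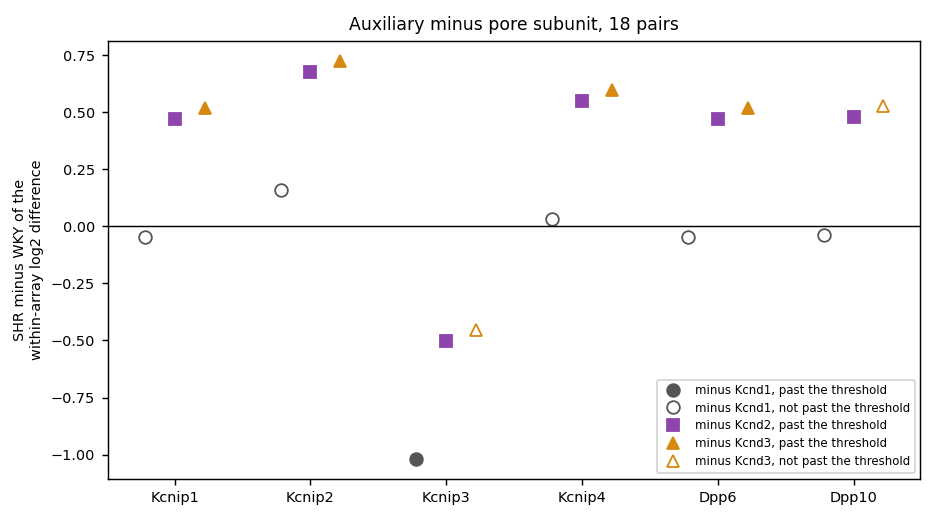
SHR minus WKY of the within-array log2 difference, auxiliary minus pore, for the 18 pairs, by auxiliary gene on the horizontal axis and by pore gene in the symbols; filled symbols are past the threshold in the exact permutation test. Kcnip3 lies below 0 against all 3 pore genes, and the other auxiliary genes lie above 0 against Kcnd2 and Kcnd3.

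Of 60 tested probe sets of other genes around the channel, in 4 lists, 2 were lower and 0 higher in SHR, a share near the 4.26% over all probe sets tested, and 16 had an unadjusted p under 0.05, which 21% of all had. Of 13 tested probe sets of other subunits found in A-type complexes (Kcna4, Kcnc4, the Kcnab beta subunits, Kcne2, Kcne4 and Ncs1), 0 passed in limma and 2 had an unadjusted p under 0.05. Kcne1 and Kcne3 were below the filter. Kcna4, the A-type pore of the Shaker family, averaged 55.8 ± 7.23 for SHR and 65.3 ± 2.42 for WKY (SD, n = 5; difference -0.19 ± 0.099 in log2; limma adjusted p = 0.295). Of 13 probe sets of relatives of the auxiliary subunits, neuronal calcium sensors such as Hpca and Ncald and the peptidases Dpp8 and Dpp9, 0 passed and 4 had an unadjusted p under 0.05. Of 27 probe sets of kinases, scaffolds and other regulators of Kv4 channels, 7 had an unadjusted p under 0.05 and 1 was lower: Fmr1, the RNA-binding protein FMRP that binds Kcnd2 mRNA, averaged 88.0 ± 16.3 for SHR and 127 ± 15.6 for WKY (SD, n = 5; difference -0.47 ± 0.11 in log2; limma adjusted p = 0.0244). The call on Fmr1 ended without SHR 2, SHR 3, WKY 3, WKY 4 or WKY 5 (-0.45 to -0.40, limma adjusted p = 0.0516 to 0.0807). It also ended without both SHR 2 and SHR 3 (-0.30, adjusted p = 0.137) and without both WKY 4 and WKY 5 (-0.39, adjusted p = 0.248). The same held with no filter (adjusted p = 0.0538) and with the covariate (-0.22, adjusted p = 0.584). The median log2 difference of these 3 lists was 0.048, 0.087 and 0.0092, against 0.016 over all probe sets tested.

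Of 7 tested probe sets of genes with a published DREAM site or response, 1 was lower and 0 higher, and 3 had an unadjusted p under 0.05. This was 1383294_at of Pdyn, the prodynorphin gene that DREAM represses, which averaged 343 ± 46.4 for SHR and 496 ± 31.8 for WKY (SD, n = 5; difference -0.52 ± 0.083 in log2; limma adjusted p = 0.00117). With the covariate its call ended (-0.39; adjusted p = 0.103). The other Pdyn probe set, 1369882_at, differed by -0.0023 ± 0.11. All 7 differences, which come from only 5 genes, were below 0, with a median of -0.21, against 46.0% below 0 over all probe sets tested. Those of Fos, Crem, Bdnf and Slc8a3 did not pass. The direction of Pdyn was known from earlier results of these arrays when the list was made.

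By the root-mean-square distance of log2 values over the 10 arrays, each centred on its own mean, the probe sets most like 1376225_at of Kcnip3 were those of Retsat (0.17), Snx10 (0.18) and Klf6 (0.18), against a median distance of 0.51 over all named probe sets. Retsat, a retinol saturase, differed by -1.03 in log2. Klf6, a zinc finger transcription factor, averaged 41.4 ± 7.99 for SHR and 88.9 ± 13.1 for WKY, and the sorting nexin gene Snx10 averaged 196 ± 2.54 for SHR and 356 ± 38.6 for WKY (SD, n = 5). Most like 1369144_a_at of Kcnd3 were Plekha6 (0.12), Nsun5 (0.14) and Ildr2 (0.15), against a median of 0.47, with Plekha6, a pleckstrin homology domain gene, at 181 ± 17.2 for SHR and 93.7 ± 8.96 for WKY. These neighbours share the strain difference by the way they were chosen.

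**Figure D5:**
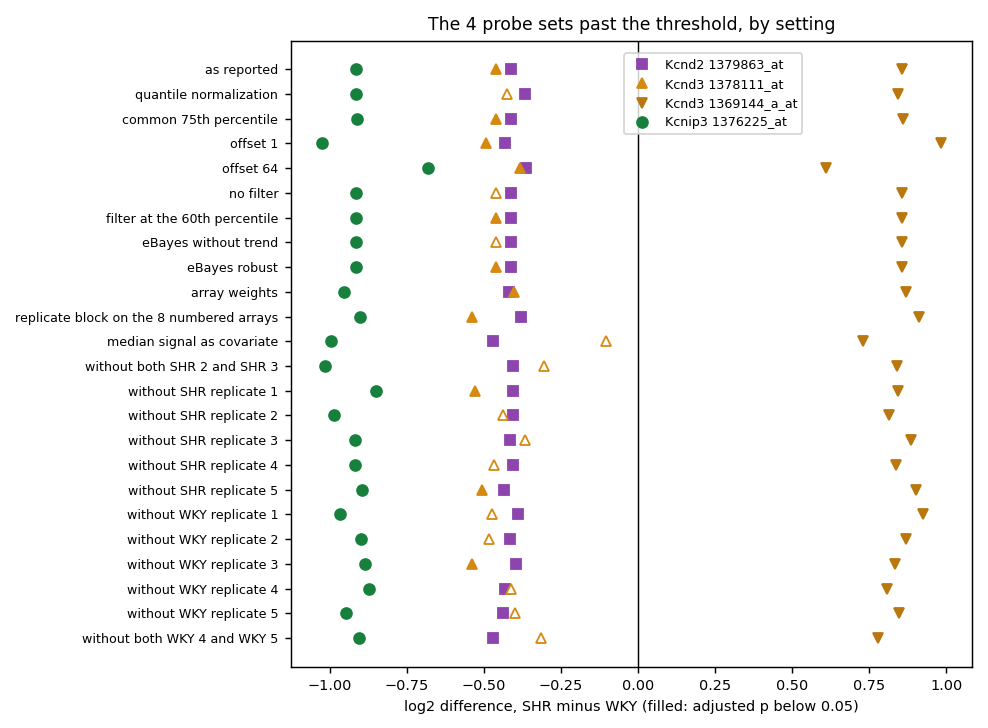
Log2 difference, SHR minus WKY, of the 4 probe sets past the threshold under each setting of the analysis, listed down the page; filled symbols have an adjusted p below 0.05. Kcnip3, 1379863_at of Kcnd2 and 1369144_a_at of Kcnd3 are filled at every setting, and 1378111_at of Kcnd3 at some.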

How the data were processed

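Total RNA was labelled with a MessageAmp II kit for 1-colour arrays, per the labels' protocols. The deposited values are linear intensities, 1 for each probe set and array, that come from GCOS 1.2 per the submitters' processing notes. The authors scaled the arrays, since each has a mean of 100 after 2% is trimmed at both ends. Background correction and detection calls were not given in the sources used here, no background level was therefore applied, and the number of arrays limits the precision.

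Probe sets were taken by the platform annotation, and other genes were named through Entrez identifiers in the GRCr8 table. Controls (57 of 31099 probe sets) were dropped, and 18846 of 31042 reached the 40th percentile of the array on 5 or more of 10 arrays. Strain was the only term in limma 3.58.1 (R 4.3.3; lmFit, eBayes with an intensity trend) on log2(signal + 16), an offset that understates changes of low signals. The fit and the permutation test were tested on simulated data. No pair of arrays shared more than 2 identical values.

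Every member probe set is given, and so are up to 3 probe sets per list past the threshold, by adjusted p, and the 3 nearest in pattern to the pore and the auxiliary probe set of smallest p. Kcna4, Gad1, Slc32a1 and list members printed without values were added once their values were known. The members, lists and alternatives were chosen with earlier results of these data known. The alternatives were quantile and 75th-percentile scaling, offsets of 1 and 64, other filters and variance models, weights for arrays, a replicate block, the array medians as a covariate, the mean of a gene's probe sets, and leaving out arrays, for which the probe sets kept were those of all 10 arrays. Leaving out WKY 4 and WKY 5 together was chosen after seeing the data.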

Additional observations from a re-analysis of the deposited data

Results flagged for a closer look

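In 38 sets of 5 arrays (19 probe sets in each strain), 1 held an array far from the others by Dixon's test, where chance gives about 1 in 20. SHR 1 had 788 on 1376183_at of Dpp6, against 852 for the next SHR array. It lies within the WKY range of 759 to 889.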

How the results depend on the processing

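The calls of Kcnip3 (log2 difference -1.03 to -0.68), 1379863_at of Kcnd2 (-0.47 to -0.36) and 1369144_a_at of Kcnd3 (0.61 to 0.98) held in all 13 alternatives and in all 10 fits with 1 array left out. That of 1378111_at of Kcnd3 ended in 6 of 13 and in 7 of 10, with adjusted p from 0.00233 to 0.794 and from 0.0182 to 0.112. The number of channel probe sets past the threshold was 3 to 5. With the array medians as a covariate 206 of all probe sets and 0 of the pathway lists passed, and 1387476_at of Kcnd2 passed too (-0.67; adjusted p = 0.00435); these medians tend to be higher in SHR. Without both SHR 2 and SHR 3, 512 of all and 1 of the pathway lists passed, and 0 pairs of probe sets of one gene, the Kcnd3 pair having an adjusted p of 0.0893 (exact permutation test). That is the lowest value a single pair of the 5 can reach with 3 arrays against 5, so it could not pass by itself. Without both WKY 4 and WKY 5, an alternative chosen after seeing the data, 257 of all and 1 of the pathway lists passed, 0 pairs of probe sets of one gene and 0 auxiliary-pore pairs, against 11; in both settings 3 arrays against 5 allow no unadjusted permutation p below 0.0179. The auxiliary-pore count was 8 to 12 elsewhere (9 without SHR 2 and SHR 3). Without a filter 1 of the pathway lists and 3 pairs of probe sets of one gene passed. With 1 array left out, 480 (without WKY 4) and 481 (without WKY 5) to 976 of all probe sets passed and 1 (without SHR 2, SHR 3, WKY 3, WKY 4 or WKY 5) to 4 (without SHR 5) of the pathway lists, against 803 and 2.

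Differences that did not pass turned sign for Kcnip1 on 1370781_a_at with quantile normalization (-0.049), the covariate (-0.10), without SHR 2 and SHR 3 (-0.013) and without WKY 4 and WKY 5 (-0.019), for Kcnip1 on 1394097_at with the covariate (-0.0044), and for Dpp10 with array weights (-0.020), the covariate (-0.11), without SHR 2 and SHR 3 (-0.11) and without SHR 3 (-0.020, within -0.020 to 0.16 over the arrays left out). With the mean of a gene's probe sets, Kcnip1, Kcnip4 and Dpp6 minus Kcnd3 turned to -0.13, -0.083 and -0.083. The causes were not tested.

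The labels number 8 of the 10 arrays, 2 to 5 in each strain, and nothing says that a number marks a shared batch. Deviations of same-numbered arrays correlated at 0.038 to 0.28, and 6 of the 8 correlated best with their own number. With the number as a replicate block on these 8 arrays, 4 channel probe sets and 929 of all passed, and Kcnip3 differed by -0.90.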
